A study of Mus musculus with 8 samples.

Results

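The TGF-beta and BMP signalling genes were described in 8 RNA-seq libraries of sorted mouse mammary gland cells. They were taken by symbol, without use of any measured value: the TGF-beta, BMP and inhibin/activin ligands, the protease Bmp1, the latent TGF-beta binding proteins, the receptors and co-receptors, the secreted or decoy antagonists, the Smads, and Id1 to Id4. The rule found 52 of the 49671 genes in the deposited table. Every mouse was female and of mixed background per the labels, which do not state ages. Cells were sorted as negative for CD45, CD31 and CD140a (found on the surface of leukocytes, endothelial cells and mesenchymal cells) and positive for CD24, with low CD29 (luminal, 40000 cells a library) or high CD29 (basal, 5000 cells a library). CD1 luminal and CD1 basal cells came from mice of the strain labelled CD1. DNp63 luminal and DNp63 basal cells were GFP+ cells of K8rtTA/TetOCre/Rosa26-DNp63-IRES-GFP mice. In these animals the keratin 8 promoter drives rtTA, doxycycline then turns on Cre, and Cre releases DNp63, the p63 isoform of basal cells, together with GFP. Each group held 2 libraries, and the labels state neither when the sequenced mice were induced nor whether libraries came from separate animals, so p-values measure the spread between these libraries, which may be technical. The transgene came together with another strain, doxycycline and a GFP gate, and these cannot be told apart.

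TGF-beta and activin ligands act through receptors that phosphorylate Smad2 and Smad3, and BMP ligands through receptors that phosphorylate Smad1, Smad5 and Smad9; both branches share Smad4. Latent TGF-beta is held in the matrix by Ltbp proteins, antagonists such as follistatin (Fst) bind ligands outside the cell, and Smad6 and Smad7 inhibit the pathway inside it. The Id genes, which encode inhibitors of basic helix-loop-helix transcription factors, are classic targets of BMP signalling. In the mammary gland TGF-beta is known as a brake on ductal growth.

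Values are given as deposited, in reads per 20000000 reads of a library, with the first library of a group before the second. Recovered reads numbered 4136994 to 7206725 a library, so 1 read was worth 2.78 to 4.83. Differences are log2 differences, each with its standard error (SE) and limma's adjusted p (moderated test, two-sided, Benjamini-Hochberg over the 16900 genes tested). A gene was called where that p was under 0.05. Libraries of the same group correlated at 0.965 to 0.980 over tested genes. Trp63, the gene that encodes p63 and to which the transgene can add reads, stood at 61 and 45 in CD1 luminal, 5457 and 7079 in CD1 basal, 1297 and 1460 in DNp63 luminal and 8088 and 8306 in DNp63 basal cells. In the second library of each DNp63 group Xist stood at 36 (luminal) and 141 (basal), against 55545 to 111346 in the other 6 libraries. For comparisons of DNp63 cells, the number of the TGF-beta and BMP signalling genes called is therefore also given with both of those libraries left out. Ddx3y, Eif2s3y, Kdm5d and Uty, genes of the Y chromosome, stood at 0 to 4 in all 8 libraries, and the cause of the Xist values was not tested. All 8 basal markers were higher and all 8 luminal markers lower in the CD1 basal gate.

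Of the 52 genes, 46 reached a value of 40 in at least 2 libraries and were tested. The other 6 were the ligands Bmp10, Bmp15 and Bmp8b, the receptor Acvr1c, and the antagonists Grem1 and Nog, whose highest values were 12, 5, 44, 36, 15 and 28. Some genes, Bmp4, Bmp5, Bmp6, Chrd and Smad9 among them, passed through basal libraries alone, and Inhba through luminal libraries alone, so a gate difference was built into their selection. That left 39 genes with a library at the minimum in both gates.

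The promoters of 4 genes are shown because these genes differed strongly between the gates. Each stands for 1 of 4 roles and was called between CD1 basal and CD1 luminal cells. Each had a group mean of at least 100, a single RefSeq start and no annotated exon in the window. They are examples and need not have the largest difference of their role: Smad9 (3.13) differed more than Smad6 (1.57). The promoters are the 250 bases before the RefSeq transcript start on GRCm38.p6, read 5′ to 3′ on the strand of the gene. Capitals mark CAGAC on either strand (written GTCTG where it lies on the other), the core of the element bound by Smad3 and Smad4, and GGCGCC, a GC-rich motif of BMP Smads that reads the same on both strands. The motifs do not overlap each other.
Id4 (chr13:48260866-48261115, plus strand): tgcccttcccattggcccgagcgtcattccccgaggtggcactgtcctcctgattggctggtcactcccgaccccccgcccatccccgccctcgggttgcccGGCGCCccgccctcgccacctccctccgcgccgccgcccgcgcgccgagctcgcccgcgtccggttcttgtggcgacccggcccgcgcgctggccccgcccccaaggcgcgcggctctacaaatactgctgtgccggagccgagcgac
Eng (chr2:32646345-32646594, plus strand): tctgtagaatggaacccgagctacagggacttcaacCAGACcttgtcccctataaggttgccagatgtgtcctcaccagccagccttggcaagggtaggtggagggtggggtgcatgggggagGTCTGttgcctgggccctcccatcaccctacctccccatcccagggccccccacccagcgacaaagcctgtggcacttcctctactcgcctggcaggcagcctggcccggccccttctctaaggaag
Inhbb (chr1:119422249-119422498, minus strand): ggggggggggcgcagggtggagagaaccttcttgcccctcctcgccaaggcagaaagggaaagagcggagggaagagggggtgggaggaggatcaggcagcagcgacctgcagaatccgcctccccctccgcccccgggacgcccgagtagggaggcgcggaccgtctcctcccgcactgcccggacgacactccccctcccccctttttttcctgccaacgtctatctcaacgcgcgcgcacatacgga
Smad6 (chr9:64022060-64022309, minus strand): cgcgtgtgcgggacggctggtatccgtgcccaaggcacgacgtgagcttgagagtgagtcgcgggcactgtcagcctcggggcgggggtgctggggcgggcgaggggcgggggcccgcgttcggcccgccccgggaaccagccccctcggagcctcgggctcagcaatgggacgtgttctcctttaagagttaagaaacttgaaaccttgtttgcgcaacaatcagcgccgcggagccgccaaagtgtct
The Id4 window held GGCGCC 1 time, the Eng window held CAGAC or its reverse complement 2 times, and neither motif was in the Inhbb and Smad6 windows. In the RefSeq promoter table, 37 of the 52 genes were matched. CAGAC on either strand was in at least 1 window of 18 of these genes (48.6%), against 42.2% of the 32851 windows of the table, and GGCGCC in 10 (27%), against 9.59%. A gene can have more than 1 window, so the shares of genes and of windows are not the same measure, and a match of letters is a description, not a binding site.

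The gate set most of these genes apart. In CD1 basal against CD1 luminal cells, the comparison of the normal basal and luminal compartments, 23 of the 46 tested genes were higher and 7 lower. That is 65.2% called, where 44.5% of all tested genes were called (23.9% higher and 20.6% lower). Among the 39 genes with a library at the minimum in both gates, 19 were higher and 7 lower. The median difference of the 46 genes was 0.86, against -0.03 over all tested genes. In 38 of them the CD1 basal and CD1 luminal values did not overlap, against 71.3% of all tested genes. Fewer cells of a type and less RNA per cell cannot be told apart in such bulk libraries.

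**Figure D1:**
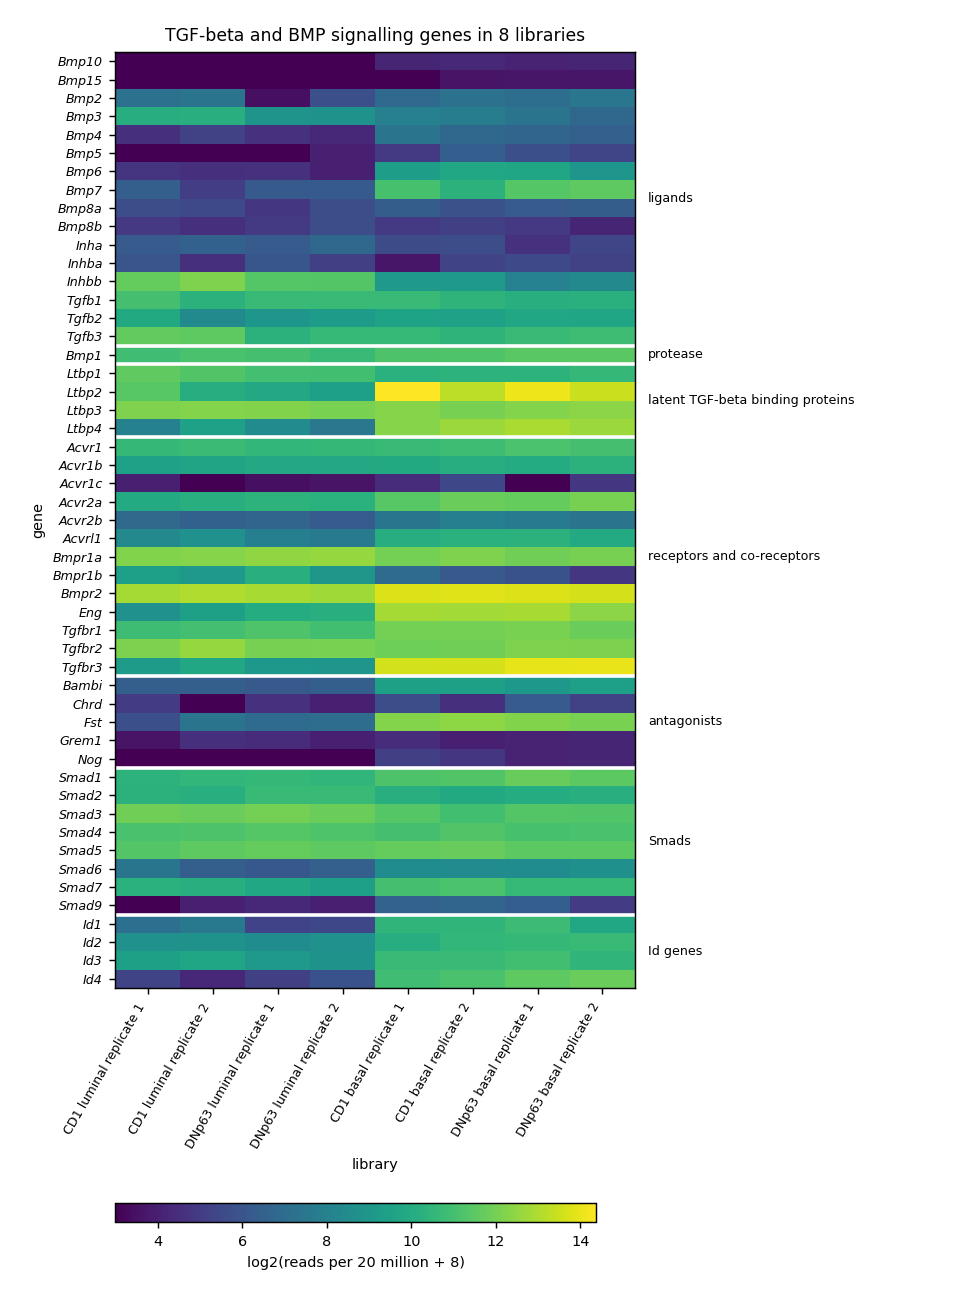
TGF-beta and BMP signalling genes (rows, grouped by role) in the 8 libraries (columns), coloured by log2 of the value (reads per 20000000) plus 8. The 4 luminal libraries are on the left and the 4 basal libraries on the right, and the step in colour between them is visible for Bmp6, Bmp7, Tgfbr3, Eng, Fst and Id4, which were brighter in basal cells, and for Inhbb, Bmp3 and Bmpr1b, which were darker.

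Among the ligands, 4 of 13 tested were higher and 3 lower in CD1 basal cells, or 53.8% called, where 44.5% of all tested genes were called. Bmp7 (ENSMUSG00000008999, chr2:172868012-172940321, GRCm38, GENCODE M21), a BMP of branching epithelia, stood at 79 and 26 in CD1 luminal, 2148 and 1254 in CD1 basal, 67 and 67 in DNp63 luminal and 2643 and 3041 in DNp63 basal cells. The lowest basal library was far above the highest luminal library, and the CD1 gate difference was 4.90 (SE 0.41, limma adjusted p = 3.59e-05), or 5.59 and 4.24 without the first and second CD1 luminal library. Bmp6 (chr13:38345107-38500302) had 637 and 879 in CD1 basal cells, 822 and 489 in DNp63 basal cells, and 18, 15, 17 and 8 in the luminal libraries, CD1 first. Its difference was 4.93 (SE 0.37, limma adjusted p = 1.99e-05). Bmp4, at 15 and 30 in CD1 luminal and 156 and 104 in CD1 basal cells, was higher by 2.17 (SE 0.39, limma adjusted p = 0.00216). Bmp5 was also called but scarce: it had 0 reads in both CD1 luminal libraries and 5 and 19 reads in the CD1 basal libraries. Of its exonic bases, 46.7% lie over the antisense gene Gm26903, and with the strand setting of the counting not given the 2 genes cannot be told apart. In the other tested genes a single overlapping gene covered at most 9.34% of the exonic bases (Ltbp2), and for Tgfb3 at most 7.6%. Bmp8a and Bmp8b are related genes, and no source used here states how reads that match both were counted. The Bmp8a values, 20 to 74 and not called, are therefore uncertain.

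Inhbb, which encodes the beta B subunit of activin B and inhibin B, went the other way. Inhbb (ENSMUSG00000037035, chr1:119415465-119422248) had 3248 and 4627 in CD1 luminal, 559 and 539 in CD1 basal, 2670 and 2583 in DNp63 luminal and 253 and 315 in DNp63 basal cells. All 4 luminal libraries were above all 4 basal ones, and the CD1 gate difference was -2.83 (SE 0.18, limma adjusted p = 9.78e-06). Bmp3, a BMP relative known to oppose other BMPs, stood at 1085 and 1112 in CD1 luminal and 243 and 220 in CD1 basal cells, a difference of -2.24 (SE 0.23, limma adjusted p = 0.0001). Tgfb3, at 3224 and 3020 in CD1 luminal and 1589 and 1326 in CD1 basal cells, was lower by 1.13 on the log2 scale. Tgfb1 and Tgfb2 did not pass the test in this comparison: their differences were -0.16 and 0.32 with 95% intervals of -0.66 to 0.33 and -0.56 to 1.20. Both changed when 1 library was left out: without the second CD1 luminal library Tgfb1 was called lower (-0.51, limma adjusted p = 0.0311), and without the first Tgfb2 was called higher (1.07, limma adjusted p = 0.00294). Their values in CD1 luminal before CD1 basal cells were 2092 and 1256 against 1617 and 1350 for Tgfb1, and 968 and 345 against 760 and 719 for Tgfb2. Per kilobase of exon, the scale on which genes can be compared, Inhbb (925 ± 229, SD, n = 2) and Tgfb3 (923 ± 42.6) had the highest ligand levels in CD1 luminal cells, and the gap between them was smaller than their spread. Tgfb1 followed at 332 ± 117. In CD1 basal cells Tgfb3 (431 ± 55.0) and Bmp7 (423 ± 157) led and did not differ beyond their spread.

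**Figure D2:**
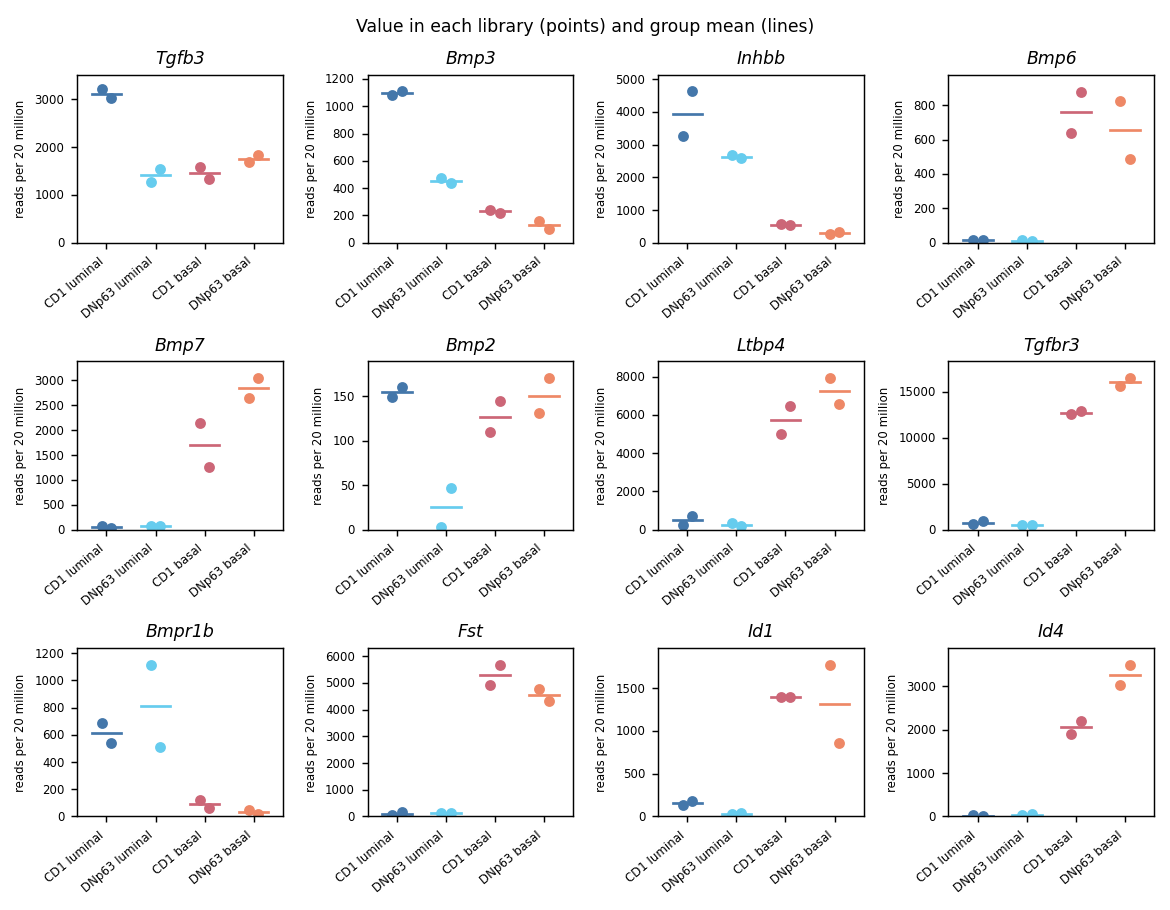
Values (reads per 20000000, linear axes from 0) of single TGF-beta and BMP signalling genes in each group; each point is 1 library and the bar is the mean of the 2. The DNp63 luminal libraries lie below both CD1 luminal libraries for Tgfb3, Bmp3, Bmp2 and Id1, while Bmp6, Bmp7, Ltbp4, Tgfbr3, Fst and Id4 are higher in every basal library than in every luminal one.

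Of the 4 latent TGF-beta binding proteins, 2 were higher and 1 lower in CD1 basal cells. Ltbp2, which binds microfibrils rather than latent TGF-beta itself, had 2741 and 1075 in CD1 luminal, 21320 and 9582 in CD1 basal, 936 and 677 in DNp63 luminal and 17436 and 11502 in DNp63 basal cells. Its CD1 gate difference was 3.02 (SE 0.47, limma adjusted p = 0.00107), and 3.71 or 2.37 without the first or second CD1 luminal library. Ltbp4, which anchors latent TGF-beta1, had 245 and 719 in CD1 luminal, 5023 and 6456 in CD1 basal, 350 and 177 in DNp63 luminal and 7907 and 6585 in DNp63 basal cells. It was higher by 3.70 (SE 0.46, limma adjusted p = 0.0003), or 2.96 and 4.49 without the first and second CD1 luminal library. Ltbp1, with 3128 and 2494 in CD1 luminal and 1223 and 1302 in CD1 basal cells, was lower by 1.17 on the log2 scale (SE 0.14, limma adjusted p = 0.000268). Ltbp3 differed by -0.07 and was not called. Bmp1, a protease that processes procollagen and chordin, had 1908 and 2231 in CD1 luminal and 2335 and 2392 in CD1 basal cells. It was between 1640 and 2841 in all 8 libraries and was not called in this comparison. Summed values of 10 fibroblast markers ran from 9258 to 45172 in CD1 luminal and from 17167 to 47227 in CD1 basal libraries, with 0 of 10 called; their part in the Ltbp values was not tested.

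Of the 12 tested receptors and co-receptors, 7 were higher and 2 lower in CD1 basal cells, or 75% called, against 44.5% of all tested genes. Tgfbr3, which encodes betaglycan, the co-receptor that presents TGF-beta2 and binds inhibins, had 617 and 904 in CD1 luminal, 12562 and 12871 in CD1 basal, 522 and 501 in DNp63 luminal and 15683 and 16486 in DNp63 basal cells. Each basal library was above every luminal one, and the difference of Tgfbr3 (chr5:107106570-107289629) in CD1 cells was 4.05 (SE 0.17, limma adjusted p = 1.17e-06), a 16.5-fold change. Eng (chr2:32646595-32682669), the endoglin co-receptor best known from endothelium, had 422 and 690 in CD1 luminal, 7399 and 7075 in CD1 basal, 1061 and 1147 in DNp63 luminal and 7502 and 5459 in DNp63 basal cells. It was higher by 3.70 (SE 0.23, limma adjusted p = 8.25e-06). Acvrl1, the ALK1 receptor of BMP9 and BMP10 in vessels, had 320 and 427 in CD1 luminal and 1090 and 1214 in CD1 basal cells, a difference of 1.59 (SE 0.21, limma adjusted p = 0.000425).

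The receptors of general use moved less. Acvr2a, a type II receptor for activins and BMPs, was higher by 1.54, Tgfbr1, the type I receptor of TGF-beta, by 1.05 and Bmpr2, the type II receptor of BMPs, by 0.82. Their values were 983 and 1101 against 2738 and 3510 for Acvr2a, 1819 and 2016 against 4066 and 4049 for Tgfbr1, and 7393 and 8450 against 13890 and 14676 for Bmpr2, CD1 luminal before CD1 basal. None of the 3 overlapped between the gates of CD1 mice, where 71.3% of all tested genes did not. Bmpr1b, a type I BMP receptor, had the opposite pattern, with 685 and 541 in CD1 luminal and 120 and 64 in CD1 basal cells (-2.71, SE 0.48, limma adjusted p = 0.00201). Its relative Bmpr1a, at 4730 and 5042 against 4084 and 4615, was not called. Neither were the type I receptors Acvr1 (1532 and 1730 against 1612 and 1805) and Acvr1b (724 and 801 against 957 and 1070), with differences of 0.04 and 0.38. The calls of Acvr2b and Tgfbr2 were less steady. Acvr2b (114 and 86 against 165 and 236) was higher by 0.91 with an adjusted p of 0.0408, which rose to 0.136 without the second CD1 luminal and 0.232 without the second CD1 basal library, and to 0.0582 and 0.0571 without the first and second DNp63 basal library. Tgfbr2 (4450 and 6183 against 3759 and 3889), the type II receptor of TGF-beta, was lower by 0.49 on the log2 scale at an adjusted p of 0.0304. That p became 0.157 without the second CD1 luminal, 0.057 without the first DNp63 luminal, and 0.123 and 0.0892 without the first and second CD1 basal library.

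The antagonists Fst and Bambi were both higher in CD1 basal cells. Fst (ENSMUSG00000021765, chr13:114452290-114458951), which encodes follistatin, the secreted binder of activins, had 47 and 160 in CD1 luminal, 4931 and 5657 in CD1 basal, 117 and 126 in DNp63 luminal and 4759 and 4337 in DNp63 basal cells. Its difference of 5.75 (SE 0.41, limma adjusted p = 1.61e-05), a 54.0-fold change, was 4.97 and 6.58 without the first and second CD1 luminal library. Bambi, a decoy receptor without a kinase domain, had 79 and 78 in CD1 luminal, 710 and 695 in CD1 basal, 64 and 79 in DNp63 luminal and 532 and 687 in DNp63 basal cells. It was higher by 3.01 (SE 0.22, limma adjusted p = 1.9e-05). Inhbb and its binder Fst thus had opposite gate patterns: Inhbb was the higher of the pair per kilobase in CD1 luminal cells (925 against 22.6 ± 17.4 for Fst) and Fst in CD1 basal cells (1154 ± 112 against 129 ± 3.32 for Inhbb). Chrd was low, between 0 and 68 in every library, and was not called in this comparison.

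Of the 8 Smads, 4 were higher and 1 lower in CD1 basal cells, or 62.5% called, against 44.5% of all tested genes. Smad2 (1263 and 1127 against 1131 and 963), Smad4 and Smad5 were not called, with differences of -0.22, -0.04 and 0.24. Smad1, a BMP Smad, had 1312 and 1467 in CD1 luminal and 2381 and 2488 in CD1 basal cells, a difference of 0.78 (SE 0.13, limma adjusted p = 0.00146). Smad3, the TGF-beta Smad, had 3837 and 3497 against 2628 and 1949 and was lower by 0.72 on the log2 scale (SE 0.15, limma adjusted p = 0.00519). The inhibitory Smad6 (164 and 78 against 367 and 352) was higher by 1.57 (SE 0.34, limma adjusted p = 0.00528), and Smad7 (1220 and 1101 against 2106 and 2300) by 0.89 (SE 0.15, limma adjusted p = 0.00185). Smad9, a BMP Smad at 0 and 8 in CD1 luminal and 87 and 96 in CD1 basal cells, had the largest difference of the Smads (3.13, SE 0.54, limma adjusted p = 0.00182), but passed the minimum through basal libraries alone.

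All 4 Id genes were higher in CD1 basal cells. Id4 (ENSMUSG00000021379, chr13:48261228-48266026), known for its role in mammary stem and basal cells, had 32 and 12 in CD1 luminal, 1910 and 2204 in CD1 basal, 28 and 51 in DNp63 luminal and 3043 and 3486 in DNp63 basal cells. The CD1 luminal values rest on 9 and 3 reads, and the difference of 6.16 (SE 0.35, limma adjusted p = 5.12e-06) was the largest of the 46 genes. Such low values make a difference depend on the constant added before the logarithm: with 32 in place of 8 it was 5.28 for Id4, 4.00 for Bmp6 and 1.55 for Bmp4, each still called. Id1 (ENSMUSG00000042745, chr2:152736251-152737410) had 135 and 186 in CD1 luminal, 1397 and 1394 in CD1 basal, 31 and 36 in DNp63 luminal and 1766 and 861 in DNp63 basal cells, and its CD1 gate difference was 3.05 (SE 0.33, limma adjusted p = 0.000139). Id2 (430 and 441 against 1076 and 1474) was higher by 1.49 and Id3 (699 and 812 against 1626 and 1637) by 1.08. The order of levels per kilobase differed between the gates: Id3 (422 ± 44.6) led in CD1 luminal cells, and Id1 (1203 ± 1.83) in CD1 basal cells, each above the next gene by more than the spread.

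Genes of vessels and of their wall were higher in the same gate, although CD31+ cells had been sorted out. Of 14 endothelial markers, 13 were higher in the basal gate of CD1 mice, with a median difference of 5.10, and none of the 14 was at 0 in every library. Their summed value was 3316 to 4514 in CD1 luminal, 2605 to 3124 in DNp63 luminal, 64944 to 65947 in CD1 basal and 45875 to 62661 in DNp63 basal libraries. Pecam1, which encodes CD31 itself, had 419 and 571, 331 and 380, 8163 and 7669, and 7637 and 4980 in the same order. Of 10 pericyte markers, 8 were higher and 1 lower, with sums of 11322 to 12393 in CD1 luminal and 23408 to 29401 in CD1 basal libraries. All 8 adipocyte markers were higher, with sums of 634 to 673 against 20869 to 26578. Single genes carried much of these sums. Fabp4 had 18903 and 21865 in CD1 basal libraries, where Adipoq had 37 and 160. In CD1 luminal libraries the pericyte markers Anpep and Notch3 had 6135 and 5498, and 5255 and 4805. The endothelial marker Vwf had 2837 and 1442 there. The part of endothelial cells, pericytes and adipocytes in the basal values of Eng, Acvrl1, Id1 and the other genes was not tested.

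**Figure D3:**
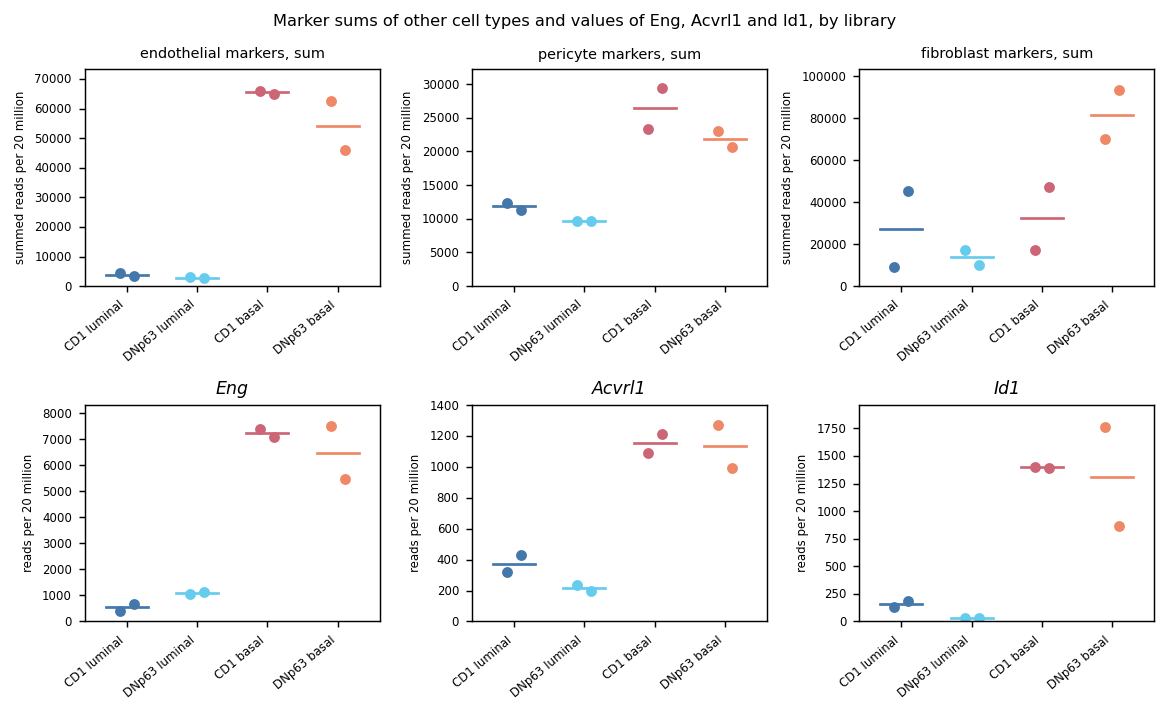
Summed values (reads per 20000000) of the marker lists of other cell types and the values of Eng, Acvrl1 and Id1 in the 8 libraries, each point being 1 library and each line the mean of the 2, on linear axes from 0. Endothelial and pericyte sums lie higher in all 4 basal than in all 4 luminal libraries, as do Eng, Acvrl1 and Id1, while fibroblast sums vary from 9258 to 93149 without a clean split by gate.

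DNp63 luminal cells were compared with CD1 luminal cells to see what differed in luminal cells that carried DNp63. Of the 46 genes, 4 were lower and 0 higher (8.70% called, against 4.38% of all tested genes, 2.64% higher and 1.74% lower). At an unadjusted p under 0.05 there were 14, but how many of all tested genes passed that threshold was not counted. The median difference of the 46 genes was -0.15, against 0.01 over all tested genes. In 18 genes the values of the groups did not overlap, against 46.3% of all tested genes. The 4 genes were 3 ligands, Tgfb3, Bmp3 and Bmp2, and the BMP target Id1.

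Tgfb3 (ENSMUSG00000021253, chr12:86056745-86079041), with 3224 and 3020 in CD1 luminal and 1266 and 1550 in DNp63 luminal cells, fell by 1.21 on the log2 scale (SE 0.14, limma adjusted p = 0.00295), a 2.31-fold change. Its DNp63 luminal values lay at the level of the CD1 basal values of 1589 and 1326. Bmp3 (chr5:98854415-98884396), with 1085 and 1112 against 472 and 435, fell by 1.32 on the log2 scale (SE 0.23, limma adjusted p = 0.0155), and remained above the 243 and 220 of CD1 basal cells. Id1, with 135 and 186 against 31 and 36, fell by 2.06 on the log2 scale (SE 0.33, limma adjusted p = 0.0114). These are 38 and 50 reads against 11 and 9, and the DNp63 luminal values lay further than the CD1 luminal ones from the CD1 basal values of 1397 and 1394. Bmp2 (chr2:133552159-133562885), a BMP ligand, had 149 and 160 against 3 and 47, which is 42 and 43 reads against 1 and 12, and fell by 2.77 on the log2 scale (SE 0.62, limma adjusted p = 0.0438). Its 2 DNp63 luminal libraries differed widely, and the difference was -1.62 without the first (limma adjusted p = 0.0878) and -3.91 without the second (0.00925).

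These 4 calls rested on few libraries. Without the first DNp63 luminal library only Tgfb3 was called, and without the second Tgfb3 and Bmp2. Bmp3 then had an adjusted p of 0.0705 and 0.135, and Id1 of 0.0649 and 0.0772. With both second DNp63 libraries left out, Bmp2 alone was called (0.213% of all tested genes were), and Tgfb3, Bmp3 and Id1 had limma adjusted p-values of 0.0831, 0.144 and 0.0755. With the first or second CD1 luminal library left out, Tgfb3, Bmp3 and Id1 kept their calls both times, and Bmp2 lost it. Further genes were then called as well, and Eng and Fst were called higher without the second. A fit of the 4 luminal libraries alone called 40 of all genes and 0 of the 46. Limma voom on the recovered reads called Tgfb3, Bmp3 and Bmp2 but not Id1 (adjusted p = 0.156). Bmp2 lost its call in 10 of 18 alternatives. Among them were 2 added in place of 8, no filter on low values, and each single basal library left out. Where both second DNp63 libraries were left out, the 1 DNp63 luminal library kept had 1 read of Bmp2.

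Other luminal differences missed the threshold. Smad7 had 1220 and 1101 in CD1 luminal against 861 and 670 in DNp63 luminal cells (-0.66, SE 0.15, limma adjusted p = 0.0508), and it was called with median-ratio scaling. Eng had 422 and 690 against 1061 and 1147 (0.96, SE 0.23, limma adjusted p = 0.0558). It was called with scaling to the library total alone and without the second CD1 luminal library. Ltbp1 differed by -0.56 (limma adjusted p = 0.0694), Acvrl1 by -0.82 (0.0707), Tgfbr3 by -0.60 (0.0958) and Id3 by -0.64 (0.14). Among the genes that set the gates apart most, Id4 (28 and 51 in DNp63 luminal cells), Fst (117 and 126), Bmp7 (67 and 67) and Bambi (64 and 79) were not called and lay far below every basal library. Fst, with a difference of 0.38, was called higher without the second CD1 luminal library (1.18, limma adjusted p = 0.00992). Endothelial marker sums were 2605 to 3124 in DNp63 luminal against 3316 to 4514 in CD1 luminal libraries, with 0 of 14 markers called; their part in the luminal differences was not tested.

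In DNp63 basal against CD1 basal cells 0 of the 46 genes were called, where 0.704% of all tested genes were called (0.207% higher and 0.497% lower). At an unadjusted p under 0.05 there were 6 (Inhbb, Bmp3, Acvr1, Bmpr1b, Smad1 and Smad7), and limma voom called 0, as did the fit with both second DNp63 libraries left out (0.116% of all tested genes). How many of all tested genes passed the unadjusted threshold was not counted. The median difference was 0.03, against -0.02 over all tested genes, and the lowest difference was -1.24 (Bmpr1b). Values of 24 genes did not overlap between the groups, where 42.6% of all tested genes did not. Inhbb came nearest, with 253 and 315 in DNp63 basal cells against 559 and 539 in CD1 basal cells (-0.94, SE 0.18, limma adjusted p = 0.0764). It was called with the library number as a block (limma adjusted p = 0.045) and without the first or second CD1 luminal library (0.0331 and 0.0341). Bmp3, with 243 and 220 against 156 and 102, differed by -0.83 (limma adjusted p = 0.2). Of the 8 luminal markers, 6 were also lower in DNp63 basal than in CD1 basal cells, with sums of 23439 to 29225 in CD1 basal and 11792 to 13207 in DNp63 basal libraries; their part in the values of the luminal-high genes Inhbb and Bmp3 was not tested.

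**Figure D4:**
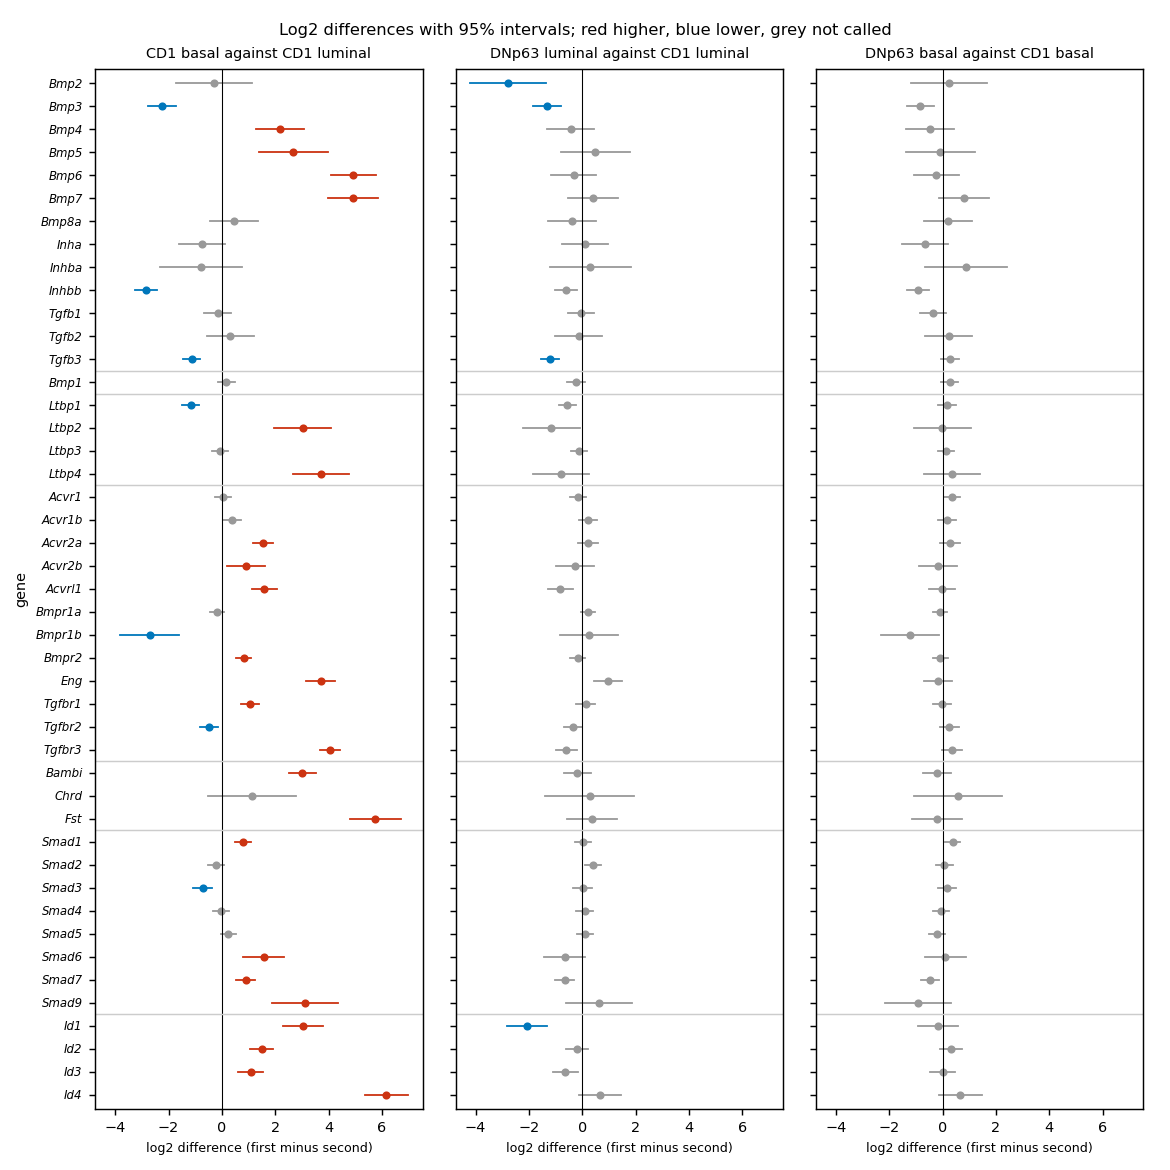
Log2 differences with 95% intervals (horizontal axis) of the tested TGF-beta and BMP signalling genes (rows) in 3 comparisons, with called genes in red (higher) or blue (lower) and the others in grey. CD1 basal against CD1 luminal differences spread from -2.83 (Inhbb) to 6.16 (Id4), the 4 blue genes of DNp63 luminal against CD1 luminal cells are Bmp2, Bmp3, Tgfb3 and Id1, and no gene is coloured in DNp63 basal against CD1 basal cells.

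Within DNp63 mice, 27 of the 46 genes were higher and 8 lower in basal than in luminal cells, or 76.1% called, against 49.1% of all tested genes (24.8% higher and 24.3% lower). Among the 39 genes with a library at the minimum in both gates, 22 were higher and 8 lower. The median difference was 1.07, against -0.08 over all tested genes. With both second DNp63 libraries left out, 20 genes were higher and 3 lower, or 50% called, where 22.8% of all tested genes were called. Of the 10 fibroblast markers, 5 were called higher, with a median of 2.65 over the 10. Sums of the 10 were 10079 to 17351 in DNp63 luminal and 69989 to 93149 in DNp63 basal libraries. None of the 10 overlapped between the gates, where 78.6% of all tested genes did not. Endothelial markers moved with the gate here too, with 13 of 14 higher and a median of 5.01. The part of such cells in this comparison was not tested. This comparison shares no library with that of the CD1 gates. Id1 differed by 4.93 here (5.54 with both second DNp63 libraries left out) and by 3.05 in CD1 cells, Tgfbr3 by 4.98 and 4.05, Bmpr1b by -4.20 and -2.71, and Eng by 2.56 and 3.70. For Id4 the differences were 6.17 and 6.16, for Bambi 2.98 and 3.01, and for Bmp6 5.02 and 4.93. Bmpr1b had 1111 and 513 in DNp63 luminal and 51 and 20 in DNp63 basal cells, so the luminal libraries differed by more than those of CD1 mice, and the difference was -3.60 without the first of them.

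The receptors and Smads called in CD1 cells were mostly called in the same direction in DNp63 cells. DNp63 luminal before DNp63 basal cells, Acvr2a had 1297 and 1213 against 3343 and 4168 (1.60), Acvrl1 234 and 196 against 1269 and 996 (2.38), Tgfbr1 2398 and 1976 against 4388 and 3583 (0.89), and Bmpr2 7649 and 7000 against 14039 and 12763 (0.90). The BMP Smad Smad1 had 1499 and 1421 against 3360 and 2959 (1.14), and the inhibitory Smad6 and Smad7 had 62 and 83 against 363 and 411 (2.33) and 861 and 670 against 1568 and 1591 (1.08). Id2 had 358 and 431 against 1505 and 1601 (1.99), and Id3 569 and 439 against 1922 and 1373 (1.71). In none of these did the DNp63 gates overlap, which was so for 45 of the 46 genes and for 78.6% of all tested genes. Tgfbr2, at 4233 and 4320 against 4679 and 4443, and Tgfb3 were called in CD1 and not in DNp63 mice. Bmp4 had 17 and 12 against 97 and 83 (2.15), Acvr2b 98 and 71 against 190 and 160 (1.02), Smad3 4094 and 3635 against 2580 and 2500 (-0.57) and Ltbp1 2001 and 1937 against 1324 and 1504 (-0.45). These 4 were called, but with both second DNp63 libraries left out none was, with limma adjusted p-values of 0.0546, 0.194, 0.126 and 0.144. The Acvr2b call was also lost without either DNp63 basal or the second DNp63 luminal library (0.0567 to 0.138), that of Smad3 without either DNp63 basal or the first DNp63 luminal library (0.0503 to 0.126), and that of Ltbp1 without any 1 of the 4 DNp63 libraries (0.0582 to 0.184).

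Among the genes called in DNp63 and not in CD1 mice were Bmp2, Inha, Bmp1, Acvr1, Bmpr1a and Smad2; only the interaction given below tests whether the mice differed. Bmp2, with 3 and 47 in DNp63 luminal against 131 and 170 in DNp63 basal cells, was higher by 2.70 (SE 0.62, limma adjusted p = 0.00709), or 1.60 and 3.84 without the first and second DNp63 luminal library. It had 110 and 144 in CD1 basal cells. The 3 in the first DNp63 luminal library is 1 read. That library alone stood for its gate where both second DNp63 libraries were left out. Bmpr1a (5720 and 6112 against 3827 and 4264) was lower by 0.52 on the log2 scale and Smad2 (1596 and 1691 against 1042 and 1141) by 0.56. Bmp1 (2046 and 1640 against 2841 and 2824) was higher by 0.66 and Acvr1 (1477 and 1538 against 2268 and 2079) by 0.55. With both second DNp63 libraries left out, of these 6 genes Bmp2 alone was called (3.68), and the limma adjusted p was 0.0669 for Inha, 0.127 for Bmp1, 0.0787 for Acvr1, 0.0987 for Bmpr1a and 0.128 for Smad2. Single libraries also ended calls: without the second DNp63 luminal library Bmp1 had 0.0511, Inha 0.0803 and Smad2 0.0621, and without the first DNp63 basal library Acvr1 had 0.0578, Inha 0.0658 and Smad2 0.0548. Smad2 had 0.0576 without the first DNp63 luminal library.

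Tgfb3, called lower in basal cells of CD1 mice, was not called in DNp63 mice, with 1266 and 1550 in luminal and 1691 and 1833 in basal cells (0.36, SE 0.14, limma adjusted p = 0.066). DNp63 basal against CD1 luminal cells, which shares libraries with the comparisons above, had 25 genes higher and 7 lower (47.1% of all tested genes were called), and 22 higher and 6 lower with both second DNp63 libraries left out (29.3%). Acvr1b, at 724 and 801 in CD1 luminal and 1033 and 1262 in DNp63 basal cells, was called in this comparison alone (0.55, limma adjusted p = 0.0148). Its DNp63 luminal values were 930 and 916. Leaving out the first CD1 luminal library gave a difference of 0.53. Leaving out the second DNp63 basal library, or both second DNp63 libraries, gave 0.43. In none of these fits did Acvr1b pass the threshold. In DNp63 basal against CD1 luminal cells, 20 were higher and 7 lower among the 39 genes with a library at the minimum in both gates. Values of these 2 groups did not overlap in 39 of the 46 genes, against 73.2% of all tested genes.

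Whether a gene differed between the mice in 1 gate but not the other was tested as an interaction, which asked whether the DNp63 minus CD1 difference of a gene was not the same in the 2 gates. It was called for 1 of the 46 genes, Tgfb3, and for 0.379% of all tested genes (0.0947% in the same direction). An unadjusted p under 0.05 was found for 10 of the 46, and all tested genes were not counted at that threshold. The Tgfb3 difference was -1.21 in luminal and 0.28 in basal cells, and the interaction was 1.49 (SE 0.20, limma adjusted p = 0.0321). Id1 had an interaction of 1.88 (SE 0.47, limma adjusted p = 0.155) and Eng of -1.14 (SE 0.33, 0.216), so for these genes the 2 gates were not shown to differ. The Eng interaction ran from -1.46 to -0.76 over 17 alternatives and was called in 1, that without the second CD1 luminal library. Fst was called there too, and Tgfbr2 and Tgfbr3 without the first. The Tgfb3 interaction had p-values of 0.0909 to 0.174 when any 1 of the 4 DNp63 or 2 CD1 basal libraries was left out, 0.0788 without the filter on low values, and 0.525 with both second DNp63 libraries left out.

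Other genes of the pathway, 99 by a written list of further ligands, extracellular regulators, activators, intracellular regulators and transcriptional targets, were counted beside them. Of these, 78 were tested, and 41 were higher and 14 lower in the CD1 basal gate, or 70.5% called, against 44.5% of all tested genes (23.9% higher and 20.6% lower). The median difference was 0.84. Higher were 14 of 17 extracellular antagonists and regulators and 3 of 4 further ligands, with 0 lower in both. Of 22 transcriptional targets 12 were higher and 3 lower, and of 12 activators and co-receptors 7 were higher and 3 lower. Of 23 intracellular regulators 5 were higher and 8 lower. Ctgf, a matrix protein gene induced by TGF-beta and by YAP, had 132 and 63 in CD1 luminal and 3027 and 6021 in CD1 basal cells, the largest difference of the list (5.40, SE 0.38, limma adjusted p = 1.5e-05). Snai2, a transcription factor of basal cells, had 22 and 60 against 1319 and 1801 (5.08, or 5.69 without the second CD1 luminal library and 4.46 with 32 added). The fibrillin gene Fbn2 (4.75; 3.86 and 5.68 without the first and second CD1 luminal library) and the proteoglycan gene Bgn (4.13; 2.75 and 5.55) followed.

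In DNp63 luminal against CD1 luminal cells, 1 of the 78 was higher and 7 were lower, a median of -0.17, where 2.64% of all tested genes were higher and 1.74% lower. Cd109, a TGF-beta co-receptor known as an inhibitor of the pathway, rose from 64 and 52 to 264 and 192 (1.77, SE 0.33, limma adjusted p = 0.0192). Chrdl2, a BMP antagonist, fell from 96 and 78 to 12 and 20 (-2.04, limma adjusted p = 0.0443), and Dcn, the decorin gene and also a fibroblast marker of the list above, from 6581 and 7887 to 2198 and 1444 (-2.07, limma adjusted p = 0.0359). These calls rested on few libraries as well: without the first DNp63 luminal library the adjusted p was 0.122 for Cd109, 0.192 for Chrdl2 and 0.0912 for Dcn, and without the second it was 0.0835, 0.151 and 0.248. With both second DNp63 libraries left out it was 0.172, 0.106 and 0.425. Without the first or second CD1 luminal library Chrdl2 had 0.0918 and 0.0834 and Dcn 0.0556 and 0.112, and Cd109 had 0.0597 without the second. Without a CD1 basal library Chrdl2 had 0.0854 and 0.0849, and without a DNp63 basal library Dcn had 0.08 and 0.0791. None of the 78 was called in DNp63 basal against CD1 basal cells. There 11 had an unadjusted p under 0.05, and all tested genes were not counted at that threshold. In DNp63 mice 46 were higher and 11 lower in basal cells (49.1% of all tested genes were called), led by Snai2 (5.71), Bgn (5.02) and Ctgf (4.89).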

How the data were processed

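RNA of 8 libraries (4 groups of 2) was measured. Per the submitters' processing notes, the authors aligned reads with STAR and counted them with HTSeq on GRCm38 (mm10); no source used here gives versions, annotation release or strand setting. The deposited values are a score: judging by the labels and the low values, counts which the authors scaled to 20000000 reads a library and rounded up. Low values fell on whole multiples of 1 read, and for 100% of values up to 400 a whole number of reads was recovered.

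TMM factors (with trims of 30% and 5%) were applied to the values, 8 was added, and limma 3.58.1 (R 4.3.3) was run on the log2 of the sum, with an intensity trend and 4 group means over all 8 libraries (4 residual degrees of freedom and 4.697 prior ones). A gene was tested if 2 or more libraries had a value of 40 or more. On simulated data with a set spread between libraries, 54% of 2-fold and 91% of 4-fold changes were recovered, with 6 false calls. A 2-fold change could thus go uncalled. The genes and lists were chosen with earlier results of these data known. A gene of the set was given in every library where it was called in at least 1 comparison and had a group mean of at least 100, and of the further pathway genes those with the largest called differences were named. Of the genes these rules would name, 1 of the set and 1 further pathway gene are not reported here by name. Coordinates and exon lengths are from GENCODE M21 and promoters from RefSeq. Alternatives were voom on recovered reads, other scalings, pseudocounts and filters, a block on library number, fits of the compared groups alone, each library left out, and, added after the data were seen because of Xist, both second DNp63 libraries left out.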

Additional observations from a re-analysis of the deposited data

Results flagged for a closer look

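The difference of Tgfb3 between DNp63 and CD1 cells was not the same in the 2 gates by limma's interaction test: it was -1.21 in luminal and 0.28 in basal cells, an interaction of 1.49 (SE 0.20, adjusted p = 0.0321). Tgfb3 had 3224 and 3020 in CD1 luminal, 1589 and 1326 in CD1 basal, 1266 and 1550 in DNp63 luminal and 1691 and 1833 in DNp63 basal libraries. The call was lost when any 1 of the 4 DNp63 or 2 CD1 basal libraries was left out (limma adjusted p of 0.0909 to 0.174), without the filter on low values (0.0788) and with both second DNp63 libraries left out (0.525).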

How the results depend on the processing

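Of 102 called differences of TGF-beta and BMP signalling genes in the 6 tests, 76 were called under each of the up to 18 alternatives in which they were tested, 26 lost the call at least once and 0 reversed. Depth limits genes that rest on few reads in luminal cells, among them Bmp2, Bmp4, Bmp5, Bmp6, Bmp7, Smad9, Id1 and Id4. Bmp6 had 5 and 4 reads in the CD1 luminal libraries, Bmp4 4 and 8, and Smad9 0 and 2. In DNp63 luminal against CD1 luminal cells, 4 genes were called, 0 in a fit of those groups alone, 1 to 8 with 1 library left out, and 1 with both second DNp63 libraries left out. In DNp63 basal against CD1 basal cells 0 were called, 1 (Inhbb) with the replicate block, and 0 to 1 with 1 library left out. In DNp63 basal against DNp63 luminal cells 35 were called, and 23 with both second DNp63 libraries left out. The interaction was called for 1 gene, for 0 without the filter on low values, for 0 to 3 with 1 library left out and for 0 with both second DNp63 libraries left out. Fewer libraries enter the fits with libraries left out and that of 2 groups alone. The share of all tested genes called changed in these fits as well. Otherwise the cause was not tested. Where 1 library of a group is left, it is assumed to vary like the other groups. The labels do not say that equal library numbers share an animal or day. Deviations of same-numbered libraries correlated at 0.341 between CD1 luminal and CD1 basal and 0.267 between DNp63 luminal and DNp63 basal cells, and at -0.014 to 0.041 between the other groups. With the number as a block, DNp63 luminal against CD1 luminal cells had 6 called genes in place of 4. The block was a single shift between first and second libraries, the same in all 4 groups. It could not follow deviations shared by the gates of CD1 mice alone or of DNp63 mice alone, and no fit used such a pairing.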
